A study of Rattus norvegicus with 6 samples.

Results

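The genes of the mitochondrial chromosome were compared between control rat hind limb muscle and muscle with acute compartment syndrome. Every row of the deposited gene table whose position lies on the chromosome MT was taken, which gave 37 of 30957 rows. These were 13 protein genes carrying gene symbols and 24 rows carrying only names of the form AY172581.x, of which 2 were 958 and 1571 bases long and 22 were 60 to 75 bases long. The unnamed rows are called rRNA-length and tRNA-length rows here, with 100 bases as the limit, since the table gives them no gene name. Along the Rnor 6.0 coordinates of the table, 28 of the 37 rows lay on the plus strand and 9, Mt-nd6 and 8 tRNA-length rows, on the minus strand.

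The mitochondrial chromosome is a small, compact circle present in many copies per cell, and muscle fibres, which are rich in mitochondria, carry a large pool of its transcripts. Both strands are copied into long transcripts by the mitochondrial RNA polymerase, and tRNAs lying between the other genes mark the places where these are cut into mRNAs, rRNAs and tRNAs. All of its proteins are core subunits of the respiratory chain or of ATP synthase, and each works together with subunits encoded in the nucleus.

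The samples were 6 total RNA libraries of the flexor digitorum longus, a toe flexor muscle, from wild-type (WT) Sprague-Dawley rats. In 3 the muscle was labelled control at 0 h, and in 3 it was labelled ACS, acute osteofascial compartment syndrome, at 18 h, a raised tissue pressure brought about by an elastic band tied around the knee. The labels gave ACS as the treatment of all 6 samples, so the control group rests on the title and the time; age and sex were not stated. The series set out to compare muscle gene expression between these states, with Acsl4, Gpx4 and Ptgs2 in view. Whether each library came from its own animal was not stated, so the p-values reflect the variation among these libraries, and that variation may be technical. Ribosomal RNA had been removed before library preparation, and the labels did not name the rRNAs targeted. The libraries held 14340865 to 21003928 assigned read counts.

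ACS replicate 1 stood apart before any test. It had the fewest counts, of which 8118339 fell on nuclear rows, against 16905185 to 19425424 in the other libraries. Control 3 and ACS 3 shared the letters "ji" in their description, the meaning of which was not given. The 10 matched skeletal muscle marker genes, among them Acta1 and Ckm, summed to 139412 to 162587 CPM in the controls, where CPM is the count relative to the library total after TMM scaling. They summed to 92268, 128648 and 216154 CPM in ACS 1, 2 and 3. None of the 10 passed the edgeR test described below, which called 4.14% of all tested genes. The tissue label therefore matched its markers in every library, with the lowest sum in ACS 1.

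The chromosome took a similar share of all counts in the 3 control libraries and widely different shares in the 3 ACS libraries. In control muscle the share was 8.60%, 8.38% and 7.52% in replicates 1, 2 and 3. In ACS muscle it was 43.4%, 4.82% and 5.33%. ACS 1 lay far above every control and the other two ACS libraries below every control, so the groups overlapped. The group means were 8.17% ± 0.575 (SD, n = 3) and 17.85% ± 22.1 (SD, n = 3), and the difference of 9.68 percentage points gave p = 1 in an exact two-sided permutation test, in which 3 libraries against 3 cannot go below 0.1. Without ACS 1 the difference was -3.09 points, with the opposite sign. Wilson 95% intervals reached at most 0.0257 points to either side and cover counting error only. Between the libraries with the shared letters, control 3 and ACS 3, the shares were 7.52% and 5.33%. Among the rest, controls 1 and 2 stood beside 43.4% and 4.82% in ACS. In whole tissue a smaller number of mitochondria-rich cells and less mitochondrial RNA per cell cannot be told apart.

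**Figure D1:**
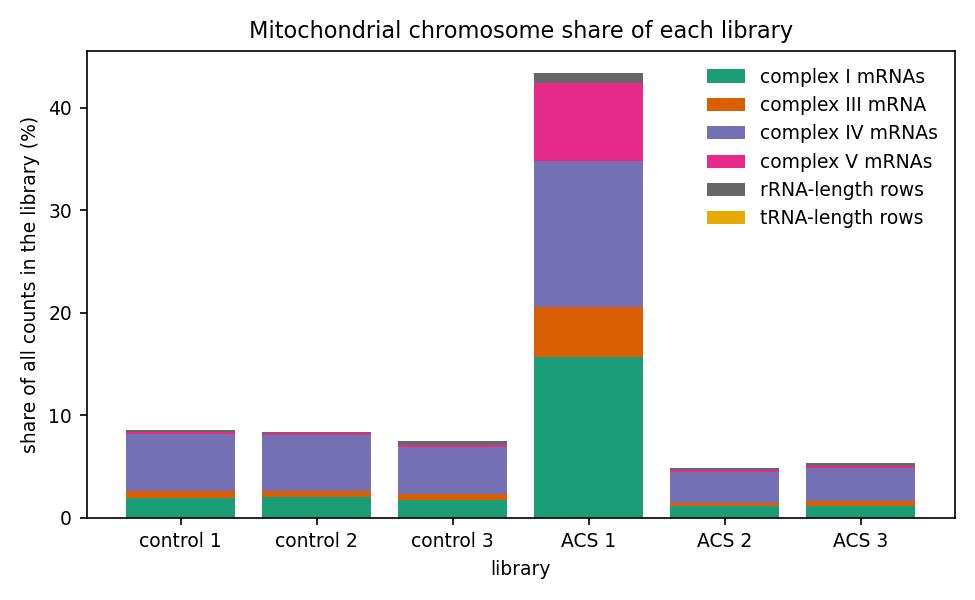
Bars show the percent of all assigned counts that fell on the mitochondrial chromosome in each of the 6 libraries, stacked by the respiratory complex of the protein genes and by row length for the others. The controls reached 7.52% to 8.60%, ACS 1 reached 43.4%, and ACS 2 and 3 reached 4.82% and 5.33%.

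No mitochondrial row passed the test between the groups. Of the 37 rows, 25 had enough counts to be tested, namely the 13 protein genes, both rRNA-length rows and 10 of the 22 tRNA-length rows. With edgeR's quasi-likelihood test and Benjamini-Hochberg adjustment over all 12873 tested genes, 0 of the 25 reached an adjusted p under 0.05, while over all genes edgeR called 4.14%. Limma-voom also called 0 of the 25, and limma on log2(FPKM + 1) called 0 of the 34 rows it tested, beside 4.68% of all genes. DESeq2 gave a p-value for 15 of the 25 and called 0 of these, beside 14% of all genes; it gave none for AY172581.15 and 9 protein genes, Mt-atp6 among them, so its count says nothing of those 10. The smallest adjusted p was 0.142. At an unadjusted p under 0.05, 4 of the 25 rows were higher and 0 lower, beside 23.5% of all genes in either direction. They were Mt-atp6, Mt-nd4, Mt-atp8 and AY172581.14. By CPM the control and ACS ranges overlapped for all 25 rows, whereas they did not overlap for 31.5% of all tested genes. By unscaled count AY172581.11 was lower in every ACS library than in any control. By share of the mitochondrial total Mt-co2 was higher in every ACS library. Each was the only such row of the 37 by its measure, and the share over all genes was not computed for either measure. Unscaled counts also follow the library total, which was lowest in ACS 1.

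The direction of the fitted changes turned with ACS 1. With all 6 libraries, 22 of the 25 tested rows had a positive log2 fold change (ACS over control), and their median was 0.95 beside -0.01 over all tested genes. Without ACS 1, 6 of 25 were positive, the median was -0.40 and the median over all genes was about 0 (-0.0041). In that fit, too, 0 of the 25 rows were called by edgeR, beside 6.68% of all genes, with a smallest adjusted p of 0.104, and 3 rows were lower and 0 higher at an unadjusted p under 0.05, beside 23.6% of all genes in either direction. They were Mt-nd1, AY172581.15 and AY172581.11. For the protein genes alone, the median log2 fold change was 2.08 with 13 of 13 positive, and -0.40 with 2 of 13 positive once ACS 1 was left out. The median over all tested genes moved to -0.32 when library totals were used with no scaling factors, and the 13 protein genes were then still all positive with a median of 1.54. With the mitochondrial total as the library size 10 of 13 were positive with a median of 0.29, and 8 of 13 with a median of 0.02 when ACS 1 was also left out. The medians over all tested genes were then -0.045 and 0.48. The protein genes made up 94.1% to 98.45% of that total, so this scaling holds them as a set near 0 and cannot test their common direction. Leaving out ACS 3 instead gave 1 called row of 27 tested, Mt-nd4, with an adjusted p of 0.0493, where edgeR called 12.7% of all genes.

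**Figure D2:**
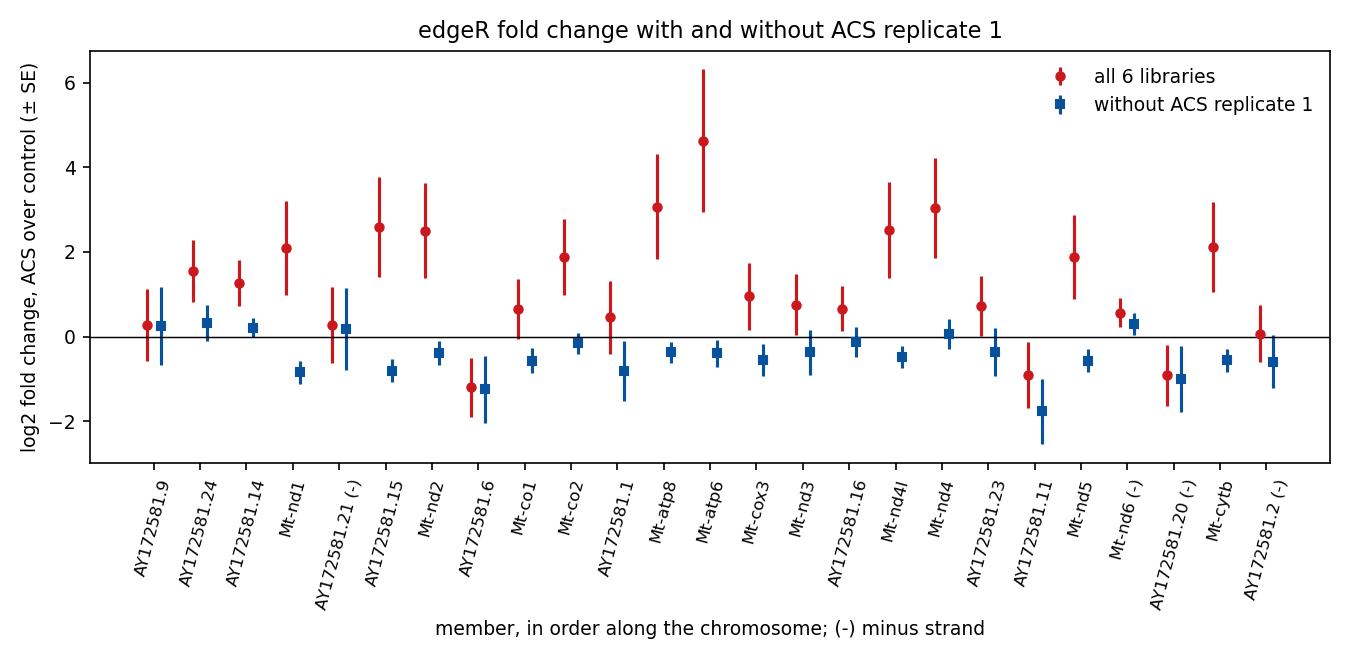
Points show the edgeR log2 fold change, ACS over control, with its standard error for the 25 tested rows in order along the chromosome, from all 6 libraries (circles) and without ACS replicate 1 (squares). Of the circles 22 lie above 0, and of the squares 6.

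In control muscle the protein genes differed widely in level per length. By FPKM, the deposited level scaled to gene length and library total, Mt-co1 was the highest at 24482 ± 4430 (SD, n = 3), followed by Mt-cox3 at 11632 ± 2547, and neither overlapped the gene after it. Mt-co2, Mt-nd1 and Mt-cytb came next at 7369, 6081 and 5518 FPKM, each overlapping the neighbouring gene. Mt-nd4l and Mt-nd2, at 4329 and 4051 FPKM, overlapped each other, as did Mt-atp8 and Mt-nd5 at 3147 and 3001 FPKM. Mt-atp6 at 1988 FPKM and Mt-nd6 at 1309 FPKM stood clear of their neighbours, and Mt-nd4 and Mt-nd3, at 862 and 696 FPKM, overlapped at the bottom. The highest of the 12 plus-strand mRNAs was 57.7, 43.4 and 25.0 times the lowest in controls 1, 2 and 3.

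The order was close to that of the controls in ACS 2 and 3 and differed in ACS 1. No gene moved by more than 2 ranks in ACS 2 or by more than 1 rank in ACS 3. In ACS 1 Mt-atp6 moved from rank 10 to rank 1, and Mt-cox3 from rank 2 to rank 9. By the coefficient of variation of FPKM over the 12 plus-strand mRNAs, the levels in ACS 1 were also more even. This coefficient was 112%, 115% and 97.7% in the controls, 114% and 96.6% in ACS 2 and 3, and 58.3% in ACS 1. The group difference in the coefficient gave an exact two-sided permutation p of 0.4. By the ratio of the highest to the lowest, ACS 1 was not more even, at 59.3 against 57.7, 43.4 and 25.0 in the controls. That ratio was 81.4 and 29.5 in ACS 2 and 3. By CPM all 13 protein genes were highest in ACS 1. ACS 2 lay below every control for 11 of the 13 and ACS 3 for 8, and both did so for 7. The share over all genes was not computed for these counts, so they are not read as particular to the mitochondrial rows.

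**Figure D3:**
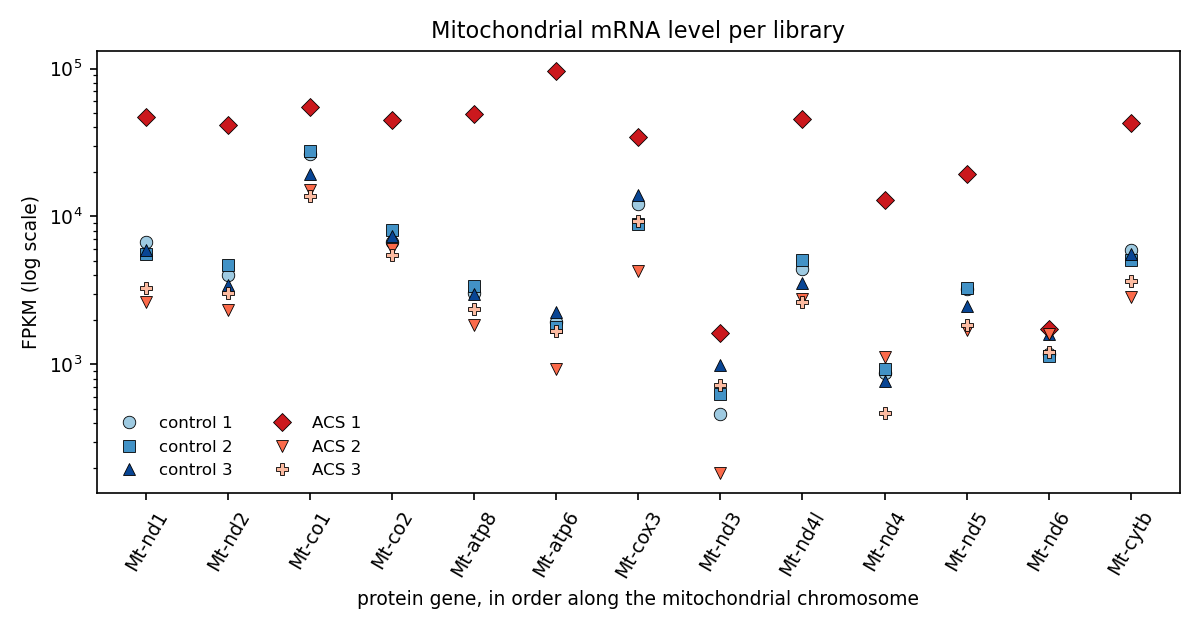
Points show the FPKM of each of the 13 protein genes in each library on a log axis, in order along the chromosome. The ACS 1 diamonds lie above the other 5 libraries for every gene, and at Mt-atp6 the gap is widest, 96412 against at most 2260 FPKM.

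The complex I genes encode core membrane subunits of the enzyme that takes electrons from NADH. Mt-nd1 (MT:2740-3694), the most abundant of them, measured 5928, 4759 and 4892 CPM in the controls and 60266, 2510 and 3283 CPM in ACS 1, 2 and 3. ACS 1 was above all controls and the other ACS libraries were below all of them. Its log2 fold change was 2.08 (SE 1.11, edgeR adjusted p = 0.293), and without ACS 1 it was -0.84 (SE 0.275, adjusted p = 0.104). Mt-nd4 (MT:10160-11537) measured 1110, 1150 and 927 CPM in the controls and 24007, 1538 and 682 CPM in ACS. Here ACS 2 lay above the controls and ACS 3 below them, and the log2 fold change of 3.04 (SE 1.17, adjusted p = 0.163) became 0.06 without ACS 1. Mt-nd3, the lowest in level per length, measured 147.5, 196.7 and 300.3 CPM in the controls and 759, 63.9 and 267.4 CPM in ACS, so ACS 2 and 3 differed from each other more than the controls did. Mt-nd2, Mt-nd4l and Mt-nd5 had log2 fold changes of 2.50, 2.52 and 1.87, and of -0.39, -0.48 and -0.57 without ACS 1, and none of the 3 passed the test.

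Mt-nd6 (MT:13543-14061), also a complex I subunit, is the only protein gene on the minus strand, and it had the smallest ratio to the controls in ACS 1 of the 13. It measured 561.5, 526.1 and 726 CPM in the controls and 1201, 824.1 and 664.3 CPM in ACS. ACS 3 lay within the control range and ACS 1 and 2 above it. The fitted log2 change was 0.57 (SE 0.335, edgeR adjusted p = 0.339) and 0.30 without ACS 1. Relative to the control mean, its CPM in ACS 1 was 1.99 times as high, whereas the 12 plus-strand mRNAs ranged from 3.35 times for Mt-co1 to 73.0 times for Mt-atp6. Its deposited count in ACS 1 was 12831, within the control range of 10877 to 17579.

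The other minus-strand rows gave few counts, so the minus-strand share of mitochondrial counts followed Mt-nd6. That share was 0.717%, 0.713% and 1.14% in the controls and 0.208%, 1.74% and 1.18% in ACS 1, 2 and 3. ACS 1 was the lowest and ACS 2 the highest of all 6, and the exact two-sided permutation p was 0.7. Mt-nd6 overlaps the end of Mt-nd5 by 23 bases on the opposite strand. The strand setting of the counting is not known, so reads there cannot be assigned to a strand. The same holds for all reads over Mt-nd6 and the other minus-strand rows, since both strands are copied. The minus-strand share is thus that of rows encoded on this strand, and whether it measures minus-strand RNA is not known. The FPKM ratio of Mt-nd6 to Mt-nd5 was 0.363, 0.344 and 0.656 in the controls and 0.0893, 0.938 and 0.660 in ACS.

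Mt-cytb (MT:14136-15278) encodes cytochrome b, the electron-carrying core of complex III. It measured 6193, 5192 and 5522 CPM in the controls and 66077, 3252 and 4377 CPM in ACS. As for Mt-nd1, ACS 1 lay above and ACS 2 and 3 below every control. Its log2 fold change was 2.12 (SE 1.06, edgeR adjusted p = 0.266) and -0.57 (SE 0.271, adjusted p = 0.252) without ACS 1.

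The complex IV genes encode the core of cytochrome c oxidase, and together they held most of the mitochondrial mRNA counts in control muscle. Mt-co1 (MT:5323-6867), the catalytic subunit that binds haem and copper, measured 37746, 37868 and 25989 CPM in the controls and 113606, 23104 and 22563 CPM in ACS. ACS 2 and 3 again lay below every control. The log2 fold change was 0.65 (SE 0.717, edgeR adjusted p = 0.613) and -0.57 (SE 0.297, adjusted p = 0.291) without ACS 1. Mt-co2, the subunit that receives electrons from cytochrome c, had 9.22 times the control mean CPM in ACS 1 and 0.911 and 0.883 times in ACS 2 and 3. Mt-cox3, the remaining core subunit, had 4.44, 0.412 and 0.949 times the control mean.

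Both complex V genes were far higher in ACS 1 than in any other library. Mt-atp6 (MT:7919-8599), the ATP synthase subunit that forms part of the proton path, measured 1209, 1078 and 1335 CPM in the controls and 88110, 631.5 and 1206 CPM in ACS. ACS 3 lay within the control range, ACS 2 below it and ACS 1 above it. For Mt-atp6 the log2 fold change was 4.63 (SE 1.68, edgeR adjusted p = 0.142) and -0.40 (SE 0.317, adjusted p = 0.508) without ACS 1. Mt-atp8 (MT:7758-7961), a small stator subunit, measured 569.1, 618.6 and 532.1 CPM in the controls and 13526, 376.3 and 509.7 CPM in ACS, so that ACS 2 and 3 were below every control. These genes overlap by 43 bases and are known to share an mRNA, and their ratio differed in ACS 1. The FPKM ratio of Mt-atp6 to Mt-atp8 was 0.636, 0.522 and 0.752 in the controls, 0.503 and 0.709 in ACS 2 and 3, and 1.95 in ACS 1. The exact two-sided permutation p for this ratio was 0.7, and how the overlap was counted is not given. The other known shared mRNA, that of Mt-nd4l and Mt-nd4, with a 7-base overlap, gave a ratio of Mt-nd4 to Mt-nd4l of 0.200, 0.185 and 0.220 in the controls and 0.286, 0.406 and 0.177 in ACS.

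**Figure D4:**
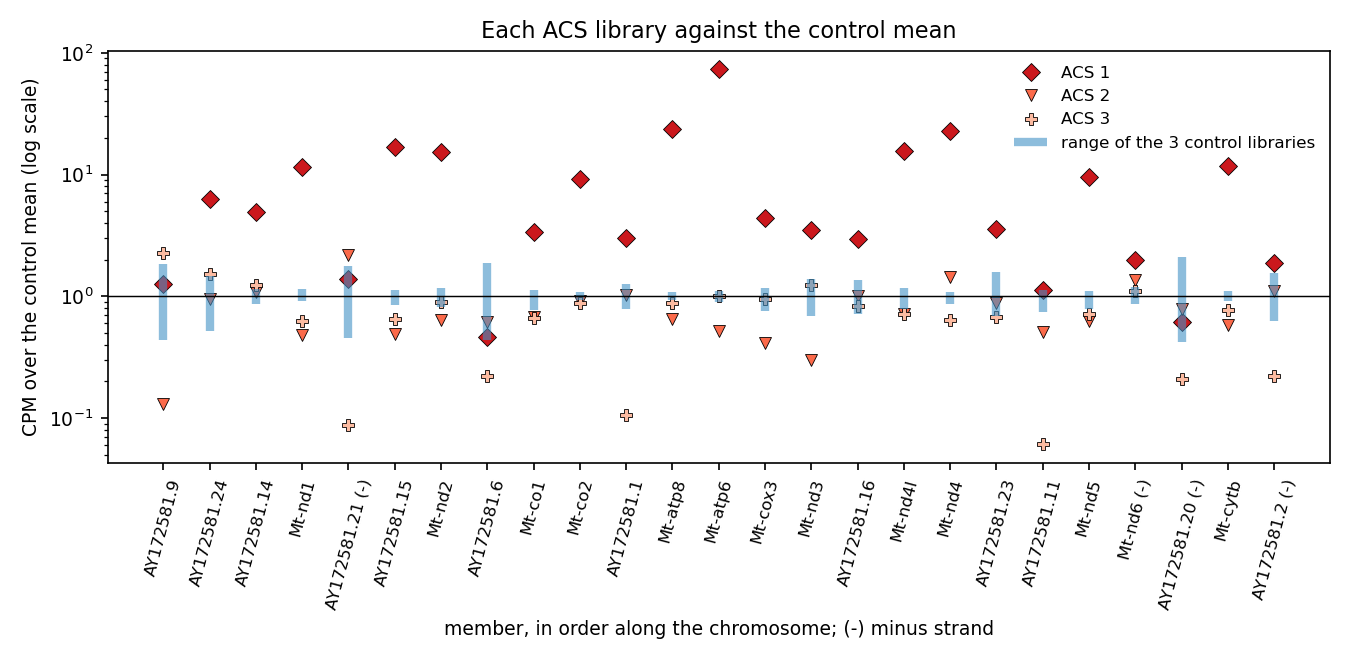
Points show the CPM of each ACS library over the control mean on a log axis for the 25 tested rows in order along the chromosome, and blue bars span the 3 controls. ACS 1 runs from 0.465 at AY172581.6 to 73.0 at Mt-atp6, while ACS 2 lies below the control bars for 11 of the 13 protein genes. The share of all genes below the controls in ACS 2 was not computed.

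Within the protein genes, the makeup by complex was steady in 5 libraries and shifted in ACS 1. Complex IV took 65.95%, 66.5% and 64.25% of the mRNA counts in the controls, 66.3% and 64.7% in ACS 2 and 3, and 33.6% in ACS 1. Complex I took 23.7% to 24.1% in the controls, 24.4% and 23.8% in ACS 2 and 3, and 36.9% in ACS 1. Complex V took 2.31%, 2.31% and 3.01% in the controls, 2.19% and 3.24% in ACS 2 and 3, and 17.9% in ACS 1, and complex III took 7.05% to 8.91% in the controls, 7.06% and 8.26% in ACS 2 and 3, and 11.6% in ACS 1. The share of Mt-co1 alone in all mitochondrial counts was 47.7%, 50.65% and 39.9% in the controls and 19.5%, 48.0% and 40.1% in ACS. No group difference in a complex's share reached an exact two-sided permutation p below 0.2.

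The split between the earlier and later plus-strand protein genes, in coordinate order after the rRNA-length rows, was close to constant in 5 libraries. The first 7 of these mRNAs, from Mt-nd1 to Mt-cox3, took 81.5%, 81.85% and 81.1% of the plus-strand mRNA counts in the controls. In ACS 1, 2 and 3 they took 72.45%, 80.6% and 81.4%. The mean difference of -3.32 points gave an exact two-sided permutation p of 0.2, and without ACS 1 it was -0.46 points. As a description over the 12 plus-strand mRNAs, which share libraries and scaling, the log2 ratio of ACS 1 to the control mean correlated with position at r = 0.036 and rho = 0.13, and with the control level at r = -0.38 and rho = -0.48.

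The rRNA-length rows, measured after rRNA removal, differed greatly from each other. AY172581.24 (MT:1094-2664, 1571 bases, plus strand) measured 2053, 1062 and 3044 CPM in the controls and 12918, 1947 and 3155 CPM in ACS 1, 2 and 3. ACS 3 was slightly above the controls, ACS 2 lay among them and ACS 1 was the highest. The log2 fold change was 1.55 (SE 0.737, edgeR adjusted p = 0.244) and 0.31 without ACS 1. AY172581.9 (MT:68-1025, 958 bases, plus strand) gave 694, 442 and 2177 counts in the controls and 657, 123 and 1951 in ACS. By CPM it was 33.8, 21.4 and 89.9 in the controls and 61.5, 6.33 and 108.9 in ACS, so its highest libraries were control 3 and ACS 3, those with the shared letters in their description. The log2 fold change was 0.28 (SE 0.852, adjusted p = 0.866).

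Per length, AY172581.24 exceeded AY172581.9 in every library. Their FPKM ratio was 37.0, 30.3 and 20.65 in the controls and 128, 188 and 17.7 in ACS, with the lowest ratios in the libraries sharing the letters. The exact two-sided permutation p between the groups was 0.4. Together they took 2.64%, 1.45% and 4.81% of mitochondrial counts in the controls and 2.23%, 4.06% and 5.80% in ACS, with p = 0.5 in the exact two-sided permutation test, and the protein genes took 97.25%, 98.45% and 95.03% against 97.7%, 95.8% and 94.1%, also with an exact p of 0.5.

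The 22 tRNA-length rows held little of the mitochondrial counts. They summed to 1823, 1518 and 2485 counts in the controls and to 6192, 1629 and 1363 in ACS 1, 2 and 3. That was 0.112%, 0.0982% and 0.157% of mitochondrial counts in the controls and 0.0995%, 0.174% and 0.135% in ACS, and the groups overlapped with an exact two-sided permutation p of 0.6. Over the 6 shares within or of the mitochondrial total that were tested, no adjusted p was below 0.84. Most counts fell on AY172581.14 and AY172581.15. Without these, 343, 392 and 968 counts remained in the controls and 574, 513 and 146 in ACS, so ACS 3 was the lowest and control 3 the highest.

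AY172581.14 (MT:2665-2739, 75 bases) and AY172581.15 (MT:3835-3903, 69 bases) directly adjoin longer plus-strand rows, with no base between AY172581.14 and either AY172581.24 or Mt-nd1, and none between AY172581.15 and Mt-nd2. AY172581.14 measured 51.9, 39.3 and 44.0 CPM in the controls and 220.2, 48.7 and 56.1 CPM in ACS. ACS 1 and 3 were above the controls, and ACS 2 lay among them. Its log2 fold change was 1.26 (SE 0.551, edgeR adjusted p = 0.210) and 0.21 without ACS 1. AY172581.15 measured 20.2, 15.1 and 18.6 CPM in the controls and 305.5, 8.75 and 11.8 CPM in ACS. Like Mt-nd1, it was above every control in ACS 1 and below every control in ACS 2 and 3, with a log2 fold change of 2.59 (SE 1.18, adjusted p = 0.227) and -0.81 (SE 0.268, adjusted p = 0.109) without ACS 1. In ACS 1 its ratio to the control mean, 17.0, was close to that of Mt-nd2, 15.5, and the ratio of AY172581.14, 4.88, lay below those of AY172581.24, 6.29, and Mt-nd1, 11.6.

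AY172581.1 (MT:7693-7756), the next in count, gave 94, 114 and 178 counts in the controls and 188, 116 and 11 in ACS. By CPM it was 4.58, 5.51 and 7.35 in the controls and 17.6, 5.97 and 0.614 in ACS, so the 3 ACS libraries lay above, within and below the control range. The log2 fold change of 0.45 (SE 0.855, edgeR adjusted p = 0.774) was -0.82 without ACS 1. AY172581.11 (MT:11665-11735) had the most negative change relative to the mitochondrial total, with 14, 21 and 25 counts in the controls and 11, 9 and 1 in ACS. By CPM ACS 1 was level with the top of the control range and ACS 2 and 3 were below it, and the log2 fold change was -0.91 (SE 0.773, adjusted p = 0.510) and -1.77 without ACS 1. These are small counts, and a difference of a few reads moves them.

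The 8 minus-strand tRNA-length rows together gave 113, 144 and 473 counts in the controls and 136, 245 and 36 in ACS. As CPM this was 5.51, 6.97 and 19.5 in the controls and 12.7, 12.6 and 2.01 in ACS, so control 3 was the highest, ACS 3 the lowest, and the groups overlapped with an exact two-sided permutation p of 0.9. The 14 plus-strand ones gave 83.4, 66.5 and 83.1 CPM in the controls and 566.7, 71.2 and 74.1 CPM in ACS. Control 3 had the highest count of all libraries in 15 of the 22 rows and ACS 1 in 5. By CPM control 3 was highest in 10 and ACS 1 in 9, and ACS 3 lay below every control in 12 of the 22. For these counts, too, the share over all genes was not computed.

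The 12 tRNA-length rows that were not tested held 0 to 25 counts per library. AY172581.13, AY172581.10 and AY172581.7 had 1 count each over all 6 libraries. A count of 0 allows up to 3 counts, or 0.143 to 0.209 CPM of the unscaled library total, so a 0 in these rows does not show absence. Why they held so few counts was not tested.

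**Figure D5:**
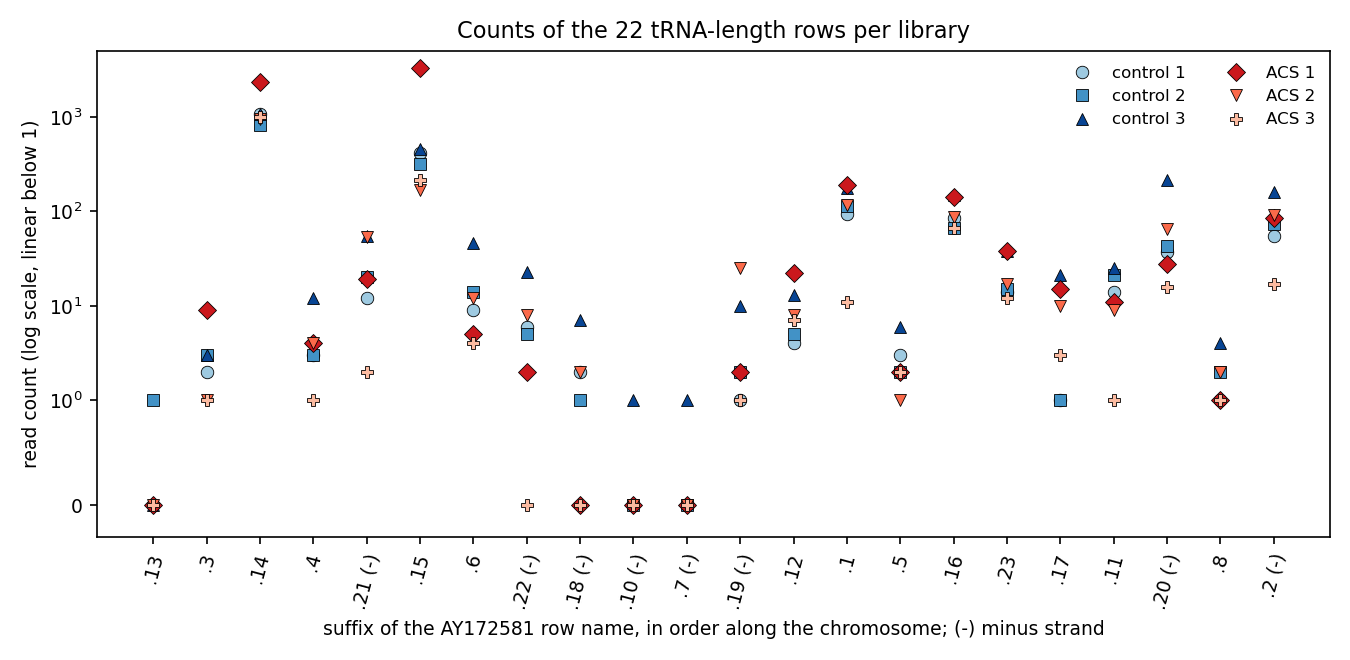
Points show the deposited read counts of the 22 tRNA-length rows in each library, on an axis that is logarithmic above 1 count, in order along the chromosome. AY172581.14 and AY172581.15 stand above the rest, with 813 to 2353 and 170 to 3265 counts.

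Nuclear genes that copy, transcribe and process the mitochondrial chromosome showed no called change. Of 19 tested genes for its transcription and maintenance, such as the polymerase gene Polrmt and the packaging factor Tfam, edgeR called 0, and 2 were lower at an unadjusted p under 0.05, where all genes stood at 23.5%. Polg, the catalytic subunit of the mitochondrial DNA polymerase and the most abundant of them, measured 42.4 ± 9.04 CPM in the controls and 35.5 ± 9.55 in ACS (SD, n = 3 each; log2 fold change -0.26, edgeR adjusted p = 0.629). Of 28 tested genes for RNA cutting, modification and decay, edgeR called 0, with 2 higher and 3 lower at an unadjusted p under 0.05. Lrpprc, which stabilises mitochondrial mRNAs, measured 179 ± 7.63 CPM in the controls and 146 ± 36.4 in ACS (log2 fold change -0.29, adjusted p = 0.554). The medians of the tested genes in these lists were -0.33 and -0.11 beside -0.01 over all genes. Among these 47 genes limma-voom also called 0, limma on log2(FPKM + 1) called 1 and DESeq2 called 3, beside 4.68% and 14% of all genes, so neither count stood above the share over all genes. Chosen after their values were seen, the 3 were Pde12, a phosphodiesterase that trims mitochondrial poly(A) tails, and Mtpap, the polymerase that adds them, both higher, and Mterfd3, a member of the transcription termination factor family, which was lower and was also the gene limma called.

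The nuclear-encoded partners of the 13 proteins gave no call either. Of 63 tested nuclear subunits of complexes I, III, IV and V, edgeR called 0, beside 4.14% of all genes, and 3 were lower at an unadjusted p under 0.05, beside 23.5% of all genes. These were Ndufa8, Ndufb7 and Uqcrq. Limma-voom, limma on log2(FPKM + 1) and DESeq2 called 0. All 63 log2 fold changes were negative with a median of -0.56, beside -0.01 over all genes. Without ACS 1, 60 were negative with a median of -0.30, beside -0.0041 over all genes. With ACS 1 left out and the mitochondrial total as library size, 7 of 63 were negative. The median of the 63 was then 0.16, still below the 0.48 over all genes, which that scaling moved upward. The most abundant subunit of each complex was Ndufs1 (log2 fold change -0.54, edgeR adjusted p = 0.349), Uqcrc2 (-0.54, 0.333), Cox6a2 (-0.45, 0.564) and Atp5b (-0.62, 0.366).

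Set against their nuclear partners, the mitochondrial mRNAs kept a similar proportion in 5 libraries. The summed CPM of the 13 mitochondrial mRNAs over that of 65 nuclear subunit genes was 5.13, 4.98 and 4.395 in the controls and 96.45, 4.33 and 4.001 in ACS 1, 2 and 3. ACS 2 and 3 lay just below the controls and ACS 1 far above them. The summed nuclear subunit CPM itself was 14980, 14795 and 14096 in the controls and 5897, 10650 and 13237 in ACS, lowest in ACS 1. For complex V the ratio was 0.269, 0.267 and 0.294 in the controls and 44.1, 0.219 and 0.288 in ACS.

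The summed levels of blood and immune cell markers were also highest in ACS 1. The 12 macrophage markers summed to 60.1 to 93.1 CPM in the controls and to 1866, 214 and 146 CPM in ACS 1, 2 and 3. Of these 12, all tested, edgeR called 2 higher, Itgam and Gpnmb. For this list and those that follow, the share called over all tested genes was 4.14% in either direction. Lyz2 alone made up 1553 CPM of the sum in ACS 1. Against that order, Adgre1 was highest in control 2 (3.19 CPM against 1.22 in ACS 1) and C1qa in control 3 (4.17 against 2.99). The 12 neutrophil markers summed to 1.55 to 6.15 CPM in the controls and to 397, 26.8 and 82.3 CPM in ACS. All 6 that could be tested were called higher. Each of these passed the filter on low counts only through the ACS libraries, so their direction was in part set by that filter. The other 6, Mpo, Elane, Ngp, Camp, Fcgr3a and Ly6g6e, had too few counts to test, with Elane highest in any library at 0.749 CPM in ACS 1. The 7 matched red cell markers summed to 468 to 1275 CPM against 10814, 1805 and 4652, with 2 of 6 tested genes called higher. Hba1 alone made up 9351 CPM of that sum in ACS 1, while Hbb, which was called, was highest in ACS 3 (996 against 821 CPM in ACS 1). The 11 platelet markers summed to 4.16 to 14.6 CPM against 92.1, 9.37 and 30.75, with 0 of 6 called. Among them Gp1bb was highest in ACS 3 (1.84 against 0.936 CPM in ACS 1). Of adipocyte, endothelial and fibroblast markers edgeR called 0 of 5, 0 of 9 and 0 of 8. Beside 4.14% of all genes, 0 calls in lists this short, the platelet list included, do not set them apart. The adipocyte sum was 50.8 to 94.6 CPM in the controls and 291.5, 79.7 and 28.9 in ACS, with Ucp1 at 0 in all libraries. The endothelial sum was 280 to 427 CPM against 587, 386 and 215, and the fibroblast sum 713 to 1101 CPM against 2357, 2425 and 3003. The Col1a2 row was at 0 in all libraries, while Col1a1 measured 112 to 1672 CPM and Col3a1 304 to 1050 CPM over the libraries. Why that row was empty was not tested, so its 0 is not read as a lack of expression. The part of these cells in the mitochondrial share of ACS 1 was not tested.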

How the data were processed

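The deposited table gave, for 6 libraries, counts per gene and FPKM made by the authors. Reads were handled with HISAT2 2.0.4 and StringTie 1.3.0 on Rnor 6.0, per the submitters' processing notes; the counting method, its use of strand and its handling of ambiguous reads were not given in the sources used here, so reads shared with nuclear copies of mitochondrial sequence or between overlapping rows are uncertain. Deposited FPKM equalled the deposited count over length and library total in the 18 mitochondrial rows checked, within 0.000697%. Every column belonged to a sample.

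Genes were filtered with filterByExpr (at least 10 counts in enough libraries and 15 in all), scaled by TMM and tested with edgeR 4.0.16 (R 4.3.3), quasi-likelihood, Benjamini-Hochberg adjusted p under 0.05 over all tested genes; the common biological coefficient of variation was 0.381. Single values per library were compared by exact two-sided permutation (scipy 1.17.1). DESeq2 1.42.0, limma 3.58.1 on log2(FPKM + 1) and limma-voom, other scalings and filters, a replicate block and leaving out each library were alternatives. The fitting script was tested on simulated data. Replicates differed beyond counting noise (chi-square per degree of freedom 38.2 to 721), so none was merely a second sequencing of another library of its group. Whether any came from the same animal cannot be told from this. Intervals are Wilson 95%, and a floor of 3 counts stands for a count of 0; both cover counting error only.

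The rows and 14 gene lists (205 entries, 191 matched, 25 of them by an older symbol) were chosen with earlier results of these data known. Values per library are given for the mitochondrial total, the rRNA-length rows, Mt-nd6, the most abundant mRNA of each complex, the 3 tRNA-length rows with most counts, and the tRNA-length rows with the largest positive and negative changes relative to the mitochondrial total, of which the former was among those 3, and for any called row; Mt-nd2, Mt-nd3, Mt-nd4, Mt-nd4l, Mt-nd5, Mt-co2, Mt-cox3 and Mt-atp8 were added after their values were seen.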

Additional observations from a re-analysis of the deposited data

How the results depend on the processing

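The count of 0 called mitochondrial rows held in every alternative except the fit without ACS 3 (DESeq2 tested 15 of the 25), with 0 to 1 called over the fits that left out a library. Among all tested genes edgeR called 533 (442 higher, 91 lower). There were 908 calls with no filter on low counts, 1793 with DESeq2, 333 with limma-voom, 330 with limma on log2(FPKM + 0.1), 37 with limma on log2(FPKM + 1) and no filter, and 280 with a term for the libraries sharing the letters "ji". Leaving out each library gave 0 to 1684, with 0 (at most 2289 at an unadjusted p under 0.05 by edgeR) whichever control was left out, 878 without ACS 1, 299 without ACS 2 and 1684 without ACS 3. Library totals gave 345 higher and 228 lower, and limma on log2(FPKM + 1) gave 249 and 268. Alternatives chosen after seeing the data gave 201 without both "ji" libraries and 865 without ACS 1 with TMM over nuclear genes. Among genes of the mitochondrial machinery DESeq2 called 3 and limma on log2(FPKM + 1) called 1, beside 14% and 4.68% of all genes. Leaving out a library gave 0 to 4 there, and 0 to 3 for nuclear subunits. The highest of each range came without ACS 3, where edgeR called 12.7% of all genes. In that fit it called 4 of 48 machinery genes and 3 of 63 nuclear subunits. The cause of these changes was not tested.

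The mitochondrial share differed by -3.09 to 16.2 points over the fits leaving out a library, the lowest without ACS 1. The tRNA-length share ran from -0.00539 to 0.0320 points and the minus-strand share from -0.162 to 0.604, both lowest without ACS 2. The others kept their sign, at 0.179 to 1.985 for the rRNA-length rows and -2.02 to -0.193 for the mRNAs. For the earlier plus-strand protein genes in coordinate order the range was -4.96 to -0.46.

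Of the 11 members named by rule, AY172581.24, AY172581.14, AY172581.11 and Mt-nd6 kept their sign in all alternatives run. None of the 11 passed the threshold where it was tested; DESeq2 gave no p-value for Mt-nd1, Mt-cytb, Mt-atp6 and AY172581.15. Leaving out a library, log2 fold changes ran from -0.84 to 2.585 for Mt-nd1, -0.57 to 2.61 for Mt-cytb, -0.57 to 1.004 for Mt-co1, -0.40 to 5.19 for Mt-atp6, -0.81 to 3.11 for AY172581.15, -0.82 to 0.998 for AY172581.1 and -0.53 to 1.07 for AY172581.9. Those of Mt-nd1, Mt-cytb, Mt-co1, Mt-atp6, AY172581.15 and AY172581.1 were lowest without ACS 1. That fit with TMM over nuclear genes gave -0.84, -0.56, -0.57, -0.39, -0.81 and -0.81 for these 6 in the same order. With the mitochondrial total as library size it gave -0.37 for Mt-nd1, -0.093 for Mt-cytb, -0.065 for Mt-co1, -0.34 for AY172581.15 and -0.28 for AY172581.1. Both of these fits were added after seeing the data. With all libraries, that library size gave -0.36 for Mt-co1 and -0.57 for AY172581.1. Limma on FPKM gave -0.11 for Mt-co1 with either pseudocount and with no filter. AY172581.1 was at -0.0049 with library totals, -0.66 with limma-voom, -0.796 with limma on log2(FPKM + 1) with or without the filter, -0.83 with 0.1 in place of 1, and -0.024 with the "ji" term. AY172581.9 was at -0.083 with library totals, -0.24 with limma-voom, -0.49 with limma on log2(FPKM + 1) with or without the filter, and -0.53 with 0.1.

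Same-numbered replicates did not deviate together (correlations -0.0629, 0.0105 and 0.0397), so the numbers were not taken as pairs. A replicate block left 0 members called and 505 genes in all, with log2 fold changes of -0.16 for AY172581.9 and -0.25 for AY172581.1, and exact p of 0.5 or more for the shares, where 0.25 is the smallest possible. Depth limits the tRNA-length rows with few counts; the number of libraries and the spread within both groups limit all rows.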
